A study of Mus musculus with 12 samples.

Results

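The apolipoprotein genes Apoa1, Apoa2, Apoa4, Apoa5, Apob, Apoc1, Apoc2, Apoc3, Apoe and Apom were followed through the livers of mice with and without Siah2. They were chosen by name, as the rows of the 2 count tables that carry these symbols, and all 10 were among the 23420 gene symbols listed. Siah2 encodes a RING ubiquitin ligase, and the question of the design was what its loss does to the liver transcriptome in each sex. Liver RNA was taken at ZT10, which is 10 hours after lights on in a cycle of 12 hours light and 12 hours dark, from mice of about 20 weeks fed normal chow. The 4 groups of 3 mice were wild type females (WTF), Siah2 knockout females (KOF), wild type males (WTM) and Siah2 knockout males (KOM), and mice are called by group and number.

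All mice were on a C57BL/6 background. The knockout is a germline loss of Siah2 in every tissue, and the wild type and Siah2-/- mice came from related homozygous lines founded by crossing heterozygotes, so line and genotype cannot be told apart. The labels describe pooled RNA of 3 mice while the methods describe this experiment mouse by mouse, and each library was taken as 1 mouse.

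Apolipoproteins are the protein part of the lipoprotein particles that carry triglyceride and cholesterol in blood. Apob is the large scaffold around which the liver builds very low density lipoprotein (VLDL), while Apoa1 and Apoa2 are the main proteins of high density lipoprotein (HDL). The small exchangeable proteins of the C group, Apoa5 and Apoe move between particles and set how fast lipases and receptors act on them. Apom is a lipocalin of HDL that carries sphingosine 1-phosphate. Most of these proteins in plasma are made by hepatocytes, and Apoa1, Apoa4 and Apob are also made by the gut.

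Transcripts were counted from their 3′ ends with the Lexogen QuantSeq kit, in which 1 transcript gives about 1 read whatever its length, so levels are given as CPM, the count of a gene relative to all counts on genes in its library, after TMM scaling, and are not divided by length. The libraries held 1293688 to 4056144 counts each, which gave every member at least 34 counts in every mouse. The ribosomal RNA precursor Rn45s took 5.68% to 17.9% of them. Hepatocyte markers summed to 36417 to 72244 CPM. Of 8 enterocyte markers, Alpi, Reg3b and Reg3g were at 0 in all mice, while the 8 together summed to 43.2 to 88.4 CPM. Siah2 itself had 11.5 to 17.0 CPM in WTF, 9.63 to 12.5 in KOF, 16.8 to 27.1 in WTM and 9.42 to 17.4 in KOM, so the genotypes overlapped in both sexes. The position of the deletion relative to the 3′ tag was not given, so these counts cannot check the genotype labels. WTF 1091 stood apart, with a TMM factor of 0.901 against 0.967 to 1.06 in the others and a score of -45.8 on the second principal component of 6707 genes against -15.2 to 25.0. For the members, calls that depend on it, and the log2 fold changes of genotype in females, are given with and without it. Fold changes and calls of genes outside the members are given with it only. In bulk liver, fewer cells of a type and less RNA per cell cannot be told apart.

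Most of the members lie in a pair of gene clusters. On GRCm38.p6, Apoa1 (chr9:46228630-46230469), Apoc3 (chr9:46233050-46235636), Apoa4 (chr9:46240844-46243458) and Apoa5 (chr9:46268608-46271921) sit within 43292 bases of chromosome 9. Apoc2 (chr7:19671579-19677941), Apoc1 (chr7:19689480-19692659) and Apoe (chr7:19696244-19701310) sit within 29732 bases of chromosome 7. Apoa2 (chr1:171221564-171226379), Apob (chr12:7977629-8016839) and Apom (chr17:35128997-35131801) stand alone. The span of Apoa2 overlaps Tomm40l and that of Apoc2 overlaps the read-through gene Gm44805, so their counts could include reads of the neighbour. The Apob transcript is 13934 bases long in GENCODE M1, against 487 to 2515 for the other members.

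The upstream promoters of the 3 members on which the results turn are shown because their levels followed different patterns across the groups. Apom differed between the sexes, while Apob and Apoa5 had log2 fold changes of opposite sign in females. Each is the 250 bases before the start that the RefSeq promoter table uses on GRCm38.p6, written 5′ to 3′ on the gene's strand, with the box TATAAA, at which the basal transcription machinery binds many genes, in capitals. Apom is chr17:35131802-35132051 on the minus strand, Apob is chr12:7977427-7977676 on the plus strand and Apoa5 is chr9:46268358-46268607 on the plus strand. The last 48 bases of the Apob window lie inside the gene span given above, which begins further upstream than that start.
Apom: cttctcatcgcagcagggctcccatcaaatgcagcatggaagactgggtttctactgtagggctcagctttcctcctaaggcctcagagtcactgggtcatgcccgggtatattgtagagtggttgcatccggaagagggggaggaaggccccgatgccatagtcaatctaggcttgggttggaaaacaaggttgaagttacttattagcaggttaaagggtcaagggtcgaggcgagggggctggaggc
Apob: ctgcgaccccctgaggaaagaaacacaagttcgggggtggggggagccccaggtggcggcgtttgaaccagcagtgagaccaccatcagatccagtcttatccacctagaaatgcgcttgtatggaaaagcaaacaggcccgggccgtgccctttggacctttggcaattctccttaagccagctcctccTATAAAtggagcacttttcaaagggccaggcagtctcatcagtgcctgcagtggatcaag
Apoa5: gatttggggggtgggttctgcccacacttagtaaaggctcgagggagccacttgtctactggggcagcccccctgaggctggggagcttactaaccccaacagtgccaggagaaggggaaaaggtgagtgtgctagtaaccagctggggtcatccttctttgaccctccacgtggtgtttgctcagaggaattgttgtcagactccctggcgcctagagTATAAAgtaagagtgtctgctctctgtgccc

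TATAAA, searched on both strands, was present in the promoters of Apob, Apoa5 and Apoa2, that is 3 of the 8 members with a promoter in the reference, and in 13.0% of all 27025 promoters of that length. Relative to the start used, the match ended at -55 in Apob, -26 in Apoa5 and -207 in Apoa2. The windows of Apoa2 and Apoe lay wholly inside their gene spans. The Apom window held none. The letters AGGTCA, the site that many nuclear receptors recognize, were found in Apoc2 alone among the 8 and in 13.8% of all promoters. The site CAAAGTCCA of HNF4 was found in none of the 8 and in 0.381% of all. These are matches of letters and not shown to be sites. Apoc1 and Apoc3 had no entry.

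The 10 members together held 2.44% to 3.89% of all counts in a liver, 3.02% ± 0.402 (SD, n = 12). The mean share was 3.01% in WTF, 3.19% in KOF, 3.00% in WTM and 2.89% in KOM, and WTF 1091 had the highest share of all. The other 2 wild type females had the values 2.44% and 2.68%, below all 3 knockout females (2.89% to 3.35%), so the level of WTF as a group rests on that mouse. The pool was uneven. Apoa2, at 10489.8 CPM ± 2129 (SD, n = 12), was the 4th most abundant of all genes, and Apoe, at 7894 ± 2009, the 8th. Apoc1 followed at 4130 ± 846, Apoa1 at 2986 ± 606, Apoa5 at 2704 ± 1058 and Apoc3 at 1609 ± 341. A gap separated these 6 from the rest, since the lowest Apoc3 value (1195) exceeded the highest Apoc2 value (368). Apoc2 stood at 251 ± 44.6, Apob at 229 ± 113, Apom at 140 ± 94.7 and Apoa4 at 45.5 ± 28.9. These are orders of 3′ tag counts.

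Neighbours in this order were not all separable. Apoa2 exceeded Apoe in 11 of 12 mice, the exception being WTF 1091. Apoe exceeded Apoc1, and Apoc1 exceeded Apoa1, in 12 of 12. Apoa1 exceeded Apoa5 in only 8 of 12, and Apoa5 exceeded Apoc3 in 11. Apoc2 exceeded Apob in 9 of 12, and Apob exceeded Apom in 9. The order was the same in WTM and KOM. In KOF, by contrast, Apoa5 was the third by mean, ahead of Apoc1 and Apoa1, and Apob came after Apom, whereas in WTF both Apob and Apom came ahead of Apoc2.

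**Figure D1:**
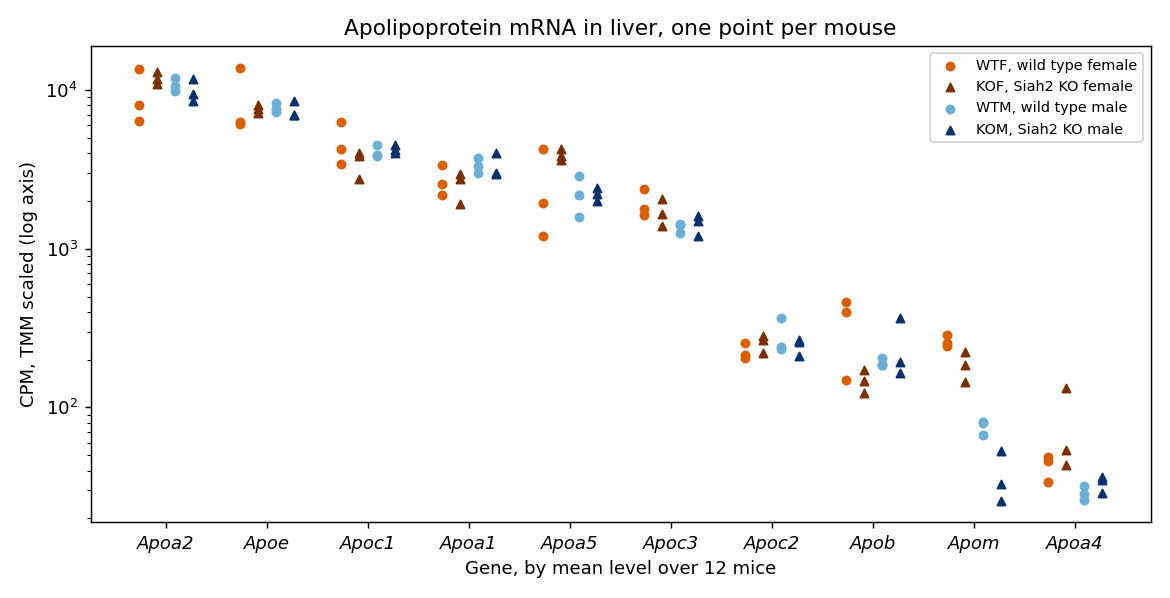
Level of each apolipoprotein mRNA in 12 livers (y, TMM-scaled CPM on a log axis; x, genes in order of mean level), with 1 point per mouse and colour and shape for the group. The 6 abundant genes sit at 1195 CPM or more, the other 4 lie at 462 or less, and Apom is the gene whose female and male points separate.

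Apom was the member that differed between the sexes. Its level was 255, 245 and 285 CPM in WTF and 67.3, 81.4 and 79.2 in WTM, in the order of the mouse numbers. In the knockouts it was 222, 186 and 146 CPM in KOF and 32.8, 53.0 and 25.9 in KOM. Every female, of either genotype, was above every male. Wild type females had 3.43-fold more Apom than wild type males (log2 fold change 1.78, SE 0.247, 95% interval 1.25 to 2.30, edgeR adjusted p = 0.000535). Knockout females had 5.02-fold more than knockout males (log2 fold change 2.33, SE 0.255, 1.79 to 2.87, edgeR adjusted p = 3.25e-05). DESeq2 also called both differences (adjusted p = 1.14e-09 and 2.27e-16). The call held without each of the 12 mice in turn, with log2 differences of 1.69 to 1.88 in wild type and 2.13 to 2.66 in knockout mice.

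The same gene was lower in knockouts of either sex, without passing the test over all genes. All 3 KOF values lay below all 3 WTF values and all 3 KOM values below all 3 WTM values. In males the knockouts had 0.478 times the wild type level (log2 fold change -1.07, SE 0.244, 95% interval -1.59 to -0.542, edgeR adjusted p = 0.555, DESeq2 adjusted p = 0.250). In females the knockouts had 0.70 times the wild type level (log2 fold change -0.51, SE 0.233, -1.03 to 0.0053, edgeR adjusted p = 0.326, and -0.43 without WTF 1091). With both sexes combined the log2 fold change was -0.76 (SE 0.186, -1.15 to -0.365, adjusted p = 0.690). The unadjusted p was 0.000662 in males, 0.0520 in females and 0.000795 combined. The change did not pass a test of a difference between the sexes, at 0.55 on the log2 scale for females minus males (-0.183 to 1.28, edgeR adjusted p = 0.521). Groups that did not overlap with the knockouts lower were found for 11.9% of the genes tested in females and 4.42% in males, and Apom was the 1 member of 10 in each.

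**Figure D2:**
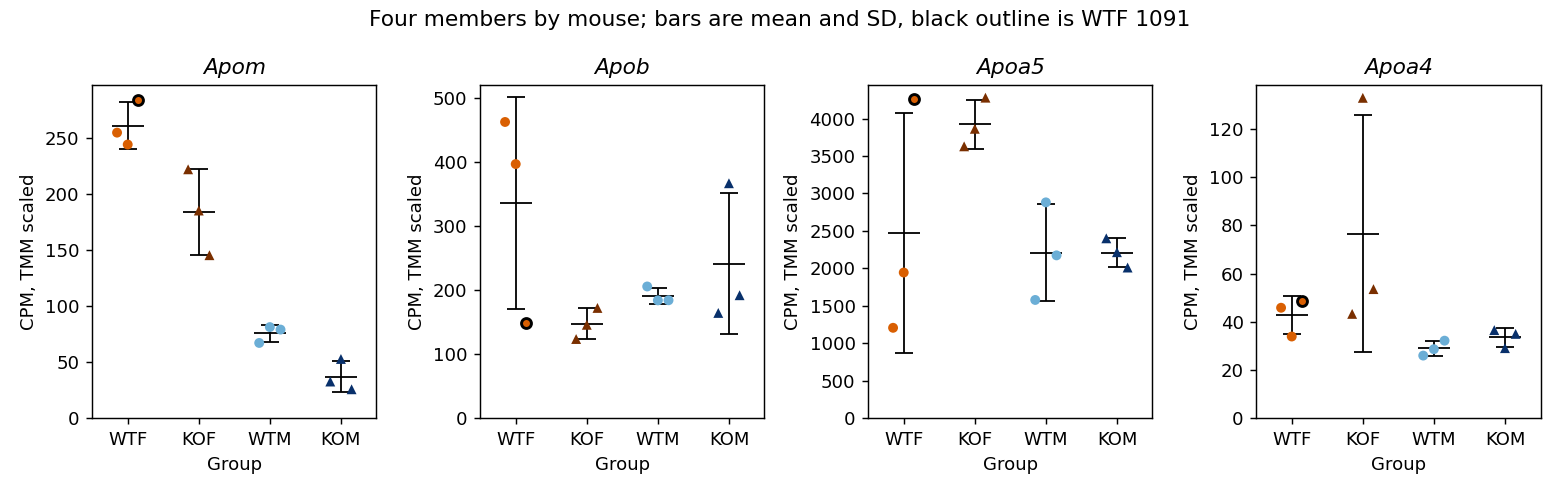
TMM-scaled CPM of Apom, Apob, Apoa5 and Apoa4 (y) in each mouse of the 4 groups (x), with the mean as a bar and the SD as whiskers (3 mice per group). WTF 1091, outlined in black, sits among the knockout females for Apob and Apoa5, and KOF 1104 alone lifts Apoa4 in its group.

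Apob, the scaffold of VLDL, had its highest values in a few mice. They were 462, 397 and 149 CPM in WTF, 124, 146 and 172 in KOF, 206, 184 and 184 in WTM and 164, 367 and 192 in KOM. Thus 2 wild type females and KOM 1076 were at 367 or more, while the other 9 mice lay between 124 and 206. WTF 1091 was within the range of the knockout females. In females the knockouts had 0.434 times the wild type level (log2 fold change -1.20, SE 0.380, 95% interval -2.05 to -0.358). That passed the threshold by DESeq2 (adjusted p = 0.0476) and did not by edgeR (adjusted p = 0.182). DESeq2 called 3.60% of genes in this comparison and 1 of the 10 members. edgeR called 0 members and 0% of 9465 genes, with 15.6% of genes and 1 member, Apob, at an unadjusted p under 0.05. Without WTF 1091 the log2 fold change was -1.55 and edgeR called it (adjusted p = 0.00214).

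In males Apob was at a log2 fold change of 0.32 (SE 0.248, -0.207 to 0.857, not called), and at -0.10 without KOM 1076. The difference between the sexes in this change, females minus males, was -1.53 (SE 0.498, 95% interval -2.58 to -0.469), which missed the threshold by edgeR (adjusted p = 0.173) and by DESeq2 (adjusted p = 0.0701). It was -1.87 without WTF 1091, where edgeR called it (adjusted p = 0.00685), and -1.09 without KOM 1076, where it did not (adjusted p = 0.372). Between the sexes, Apob was 0.81 higher in wild type females on the log2 scale (edgeR adjusted p = 0.206, and 1.17 with adjusted p = 0.00745 without WTF 1091) and 0.71 lower in knockout females (log2 fold change -0.71, edgeR adjusted p = 0.302).

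A pair of library measures is set beside Apob because its transcript is long. An index of long transcripts, the median log2 level of the 1269 genes of at least 4944 nt relative to the other genes of 6341, was lowest in WTF 1091 (-0.322) and highest in KOM 1076 (0.207). In the other 10 mice it lay between -0.108 and 0.104. Over 12 mice Apob and this index had r = 0.47 (rho = 0.53), and Rn45s was also highest in KOM 1076 at 17.9%. KOF 1105 came next at 14.9%, with 172 CPM of Apob. WTF 1089 and WTF 1090, which had the highest Apob, had 11.7% and 8.16% Rn45s and an index of 0.0172 and -0.0115. The part of these measures in the Apob values was not tested.

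Apoa5, an activator of lipoprotein lipase, showed the opposite arrangement in females. It was at 1207, 1945 and 4265 CPM in WTF and at 3629, 3863 and 4279 in KOF, so that WTF 1091 was again at the knockout level while the other wild type females were below all of them. The males were at 1579, 2881 and 2174 CPM in WTM and 2401, 2216 and 2011 in KOM, with the KOM values inside the WTM range. The log2 fold change in females was 0.65 (SE 0.416, -0.273 to 1.58, edgeR adjusted p = 0.495), and 1.32 without WTF 1091 (adjusted p = 0.00826). In males it was -0.01 (SE 0.191, -0.424 to 0.395). Females minus males was 0.67 (adjusted p = 0.603), and 1.33 without WTF 1091 (adjusted p = 0.0245). All 3 KOF values were above all 3 KOM values, a log2 difference of 0.83 (95% interval 0.0933 to 1.56, edgeR adjusted p = 0.210), which edgeR called without WTF 1091 (0.84, adjusted p = 0.0178).

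Apoa2, the second protein of HDL, ranked the wild type females in the same order as Apoa5 and the knockout females in the opposite order. It was at 6372, 8046 and 13618 CPM in WTF, 12964, 11798 and 10979 in KOF, 11930, 10535 and 9887 in WTM and 11792, 8535 and 9422 in KOM. WTF 1091 was the highest and the other WTF mice the lowest of the 12. The log2 fold change was 0.34 in females (SE 0.336, -0.413 to 1.09, edgeR adjusted p = 0.686) and 0.73 without WTF 1091 (adjusted p = 0.0455). In males it was -0.13 (SE 0.153, -0.462 to 0.195). Females minus males was 0.47 (adjusted p = 0.626), and 0.86 without WTF 1091 (adjusted p = 0.0493).

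Without WTF 1091, then, edgeR called Apob lower and Apoa2 and Apoa5 higher in knockout females, 3 of 10 members, in a comparison where 9.64% of genes were called. The difference between the sexes was called for the same 3 members, against 5.15% of all genes, and with all mice for 0 members against 0.255% of genes by edgeR and 0 against 3.46% by DESeq2. At an unadjusted p under 0.05, this difference took 14.1% of genes and Apob alone among the members. Without it, 2 wild type females remain, and the fit assumes that they vary like the other mice.

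**Figure D3:**
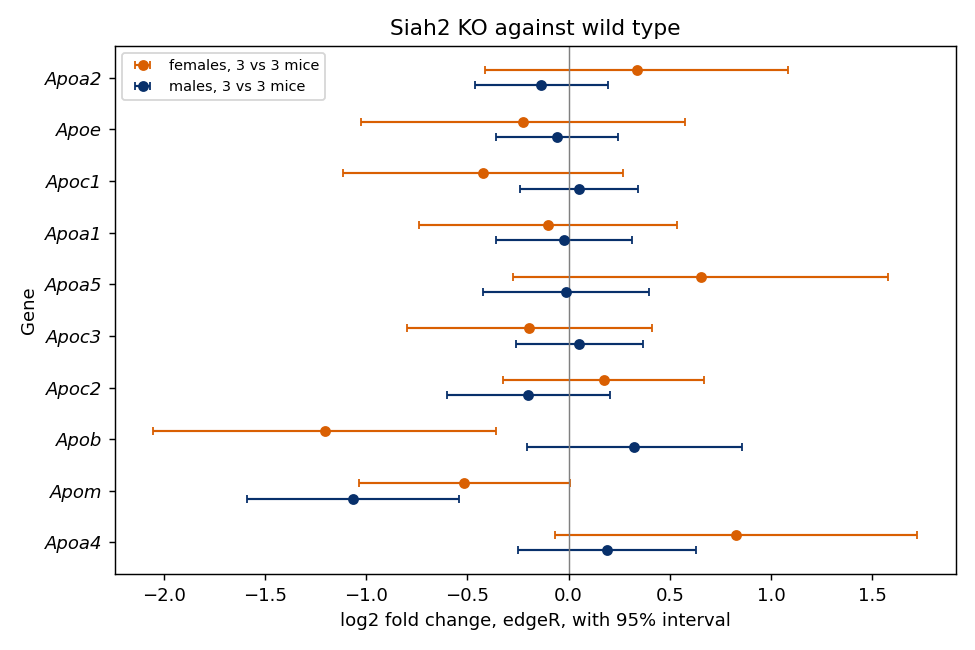
Log2 fold change of each member, Siah2 KO against wild type (x), with 95% intervals from edgeR for females and for males (y, genes in order of mean level). The female intervals are wide for Apoa5, Apoa4, Apob, Apoe and Apoa2 and narrower in males, and the intervals of Apob in females and of Apom in males lie wholly below 0.

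Apoa4, a protein of HDL and chylomicrons made in the gut and the liver, was the least abundant member. It was at 45.8, 33.9 and 48.7 CPM in WTF, 43.3, 133 and 53.6 in KOF, 26.0, 28.7 and 32.2 in WTM and 36.6, 29.1 and 35.0 in KOM. KOF 1104 was above all other mice, and the males were at or below 36.6. The log2 fold change in females was 0.83 (SE 0.401, -0.0654 to 1.72, edgeR adjusted p = 0.360). It was 0.16 without KOF 1104 and 0.95 without WTF 1091. With both sexes combined it was 0.54 (0.0185 to 1.06, adjusted p = 0.691), and 0.17 without that mouse. Knockout females exceeded knockout males by 1.19 on the log2 scale (SE 0.334, 0.482 to 1.90), which DESeq2 called (adjusted p = 0.0275) and edgeR did not (adjusted p = 0.0624). Without KOF 1104 that difference was 0.52 (edgeR adjusted p = 0.392). Enterocyte markers summed to 43.2 to 88.4 CPM over all mice.

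Apoa1, the main protein of HDL, had no difference that passed a test. It was at 3387, 2549 and 2166 CPM in WTF, 2734, 2972 and 1915 in KOF, 3342, 3015 and 3742 in WTM and 2997, 2976 and 4038 in KOM. All 3 knockout females were below all 3 knockout males, a log2 difference of -0.39 (-0.887 to 0.100, edgeR adjusted p = 0.396). Knockout against wild type gave -0.10 in females (-0.741 to 0.537), -0.22 without WTF 1091, and -0.02 in males (-0.360 to 0.313).

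Apoe, the ligand by which remnant particles are cleared, was at 6148, 6299 and 13860 CPM in WTF, 7556, 8008 and 7187 in KOF, 8243, 7645 and 7308 in WTM and 8514, 6967 and 6997 in KOM. WTF 1091 had 2.25 times the lowest WTF value, and the other 11 mice lay between 6148 and 8514. The log2 fold change in females was -0.22 (SE 0.359, -1.02 to 0.577), and its sign turned without WTF 1091 (0.29). In males it was -0.06 (-0.358 to 0.243).

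No C apolipoprotein passed a test of genotype. Apoc1, which slows receptor uptake of remnants, was at 3406, 4268 and 6327 CPM in WTF, 3996, 3825 and 2732 in KOF, 4480, 3907 and 3850 in WTM and 4539, 4033 and 4202 in KOM. Its log2 fold change was -0.42 in females (-1.11 to 0.271), -0.12 without WTF 1091, and 0.05 in males (-0.240 to 0.341), and all KOF values were below all KOM values. Apoc2, the cofactor of lipoprotein lipase, stayed between 204 and 368 CPM, with a log2 fold change of 0.17 in females (-0.321 to 0.671), 0.29 without WTF 1091, and -0.20 in males (-0.603 to 0.203). Apoc3, an inhibitor of lipoprotein lipase and of remnant uptake, was at 1627, 1774 and 2396 CPM in WTF, 1656, 2066 and 1396 in KOF, 1437, 1259 and 1405 in WTM and 1494, 1195 and 1603 in KOM. Its groups did not overlap in wild type mice, where females were 0.50 higher on the log2 scale (SE 0.216, 0.042 to 0.957, edgeR adjusted p = 0.206), and 0.31 higher without WTF 1091 (adjusted p = 0.316). Its log2 fold change was -0.19 in females (-0.796 to 0.411), 0.0053 without WTF 1091, and 0.05 in males (-0.262 to 0.370). Apoc3 also had r = -0.92 with the index of long transcripts over 12 mice (rho = -0.90), whose part in these values was not tested.

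Over the whole family, edgeR called 0 of 10 members for knockout against wild type in males (0% of genes tested) and DESeq2 0 (0.0370% of genes). At an unadjusted p under 0.05 males had 1 member, Apom, beside 4.05% of genes. With both sexes combined the members called were 0 by edgeR (0.0102% of genes) and 0 by DESeq2 (0.0112%), with Apom and Apoa4 at an unadjusted p under 0.05 beside 7.20% of genes. The median log2 fold change of the 10 members was -0.15 in females and -0.02 in males, beside -0.03 and -0.01 over all genes tested. Without WTF 1091 the female median was 0.15, so its sign rests on that mouse.

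Between wild type females and males, edgeR called 1 of 10 members, Apom, beside 5.15% of genes, and DESeq2 the same 1 beside 7.15%. Without WTF 1091 edgeR called Apom and Apob, beside 10.3% of genes. Apoa4, Apoc3 and Apom did not overlap with females higher, and 0 members with females lower, where 11.5% and 11.0% of genes did so. In knockout mice edgeR called Apom alone (3.59% of genes), and DESeq2 called Apom and Apoa4 (5.45% of genes). Without WTF 1091, which is in neither knockout group and enters through shared estimates such as the spread, edgeR called Apoa4, Apoa5 and Apom there, beside 9.60% of genes. Non-overlap with females higher held for Apoa4, Apoa5 and Apom (14.5% of genes), and with females lower for Apoa1 and Apoc1 (15.3% of genes). These comparisons share their mice with those of genotype.

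**Figure D4:**
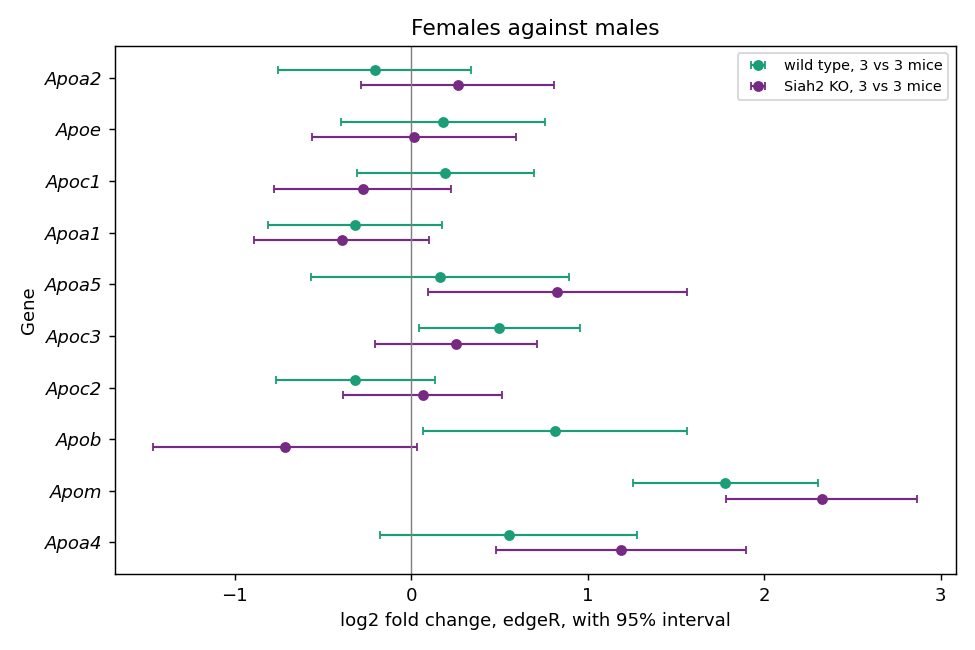
Log2 fold change of each member between females and males (x), with 95% intervals from edgeR for wild type and for Siah2 KO mice (y, genes in order of mean level). Apom lies far to the right in both, at 1.78 and 2.33, and Apob lies on opposite sides of 0, at 0.81 and -0.71.

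The members did not move as a block across mice. Over 12 mice and 45 pairs of members, the median r of log2 CPM was 0.14, and 28 pairs were positive. These correlations are descriptions over libraries that share groups and depth, and carry no test. The strongest was negative, between Apoa2 and Apob (r = -0.92, rho = -0.83), and it was -0.92 without WTF 1091, -0.89 after the group means were taken off and -0.80 without the 2 mice farthest from the Apoa2 median. Apoa5 and Apob had r = -0.74 (rho = -0.83). Only 3 pairs exceeded 0.7, namely Apoc1 with Apoe (0.75), Apoa2 with Apoe (0.74) and Apoa2 with Apoa5 (0.73). Without WTF 1091 these were 0.34, 0.88 and 0.68. Apoc1 and Apoe are neighbours in the cluster on chromosome 7, whereas Apoa2 lies on another chromosome than Apoe and Apoa5.

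**Figure D5:**
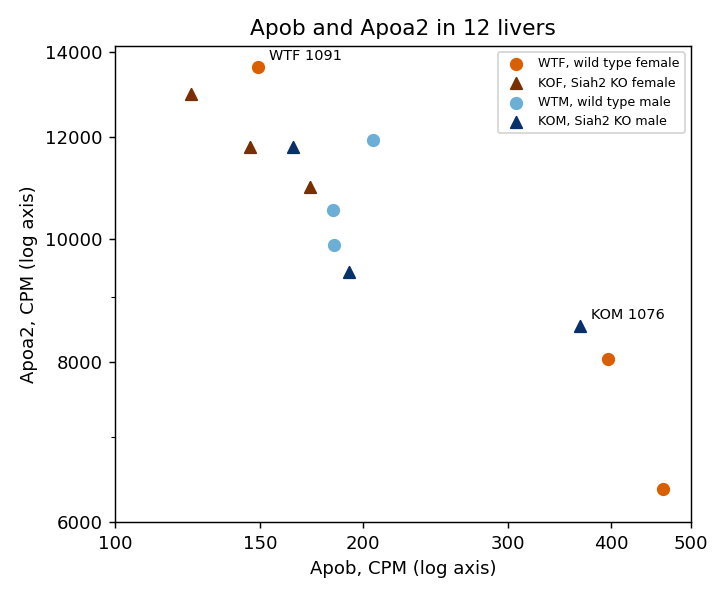
Apob (x) against Apoa2 (y) in 12 livers, both as TMM-scaled CPM on log axes, with 1 point per mouse. The 3 mice with 367 CPM of Apob or more, KOM 1076 and a pair of wild type females, have the lowest Apoa2 values, at 6372 to 8535 CPM, and WTF 1091 lies at the opposite end.

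For each member the gene most like it over the 12 mice was taken from the 6707 others whose mean reached 10 CPM. Rtn4, a reticulon of the endoplasmic reticulum, was closest to Apom (r = 0.98, rho = 0.97). Apob was closest to Mia3 (r = 0.93, rho = 0.87), which encodes TANGO1, the export receptor for bulky cargo at endoplasmic reticulum exit sites. Tuba1c, an alpha tubulin, was closest to Apoe (r = 0.97), Tmbim1 to Apoa2 (0.97), Creb3, a membrane-bound transcription factor, to Apoc3 (0.96), and Hmgb3 to Apoa5 (0.95). The others were Psmc3 for Apoc1 (0.94), Fam73b for Apoa4 (0.90), Bola1 for Apoc2 (0.89) and Hdac5 for Apoa1 (0.88). With this many candidates and 12 mice, high values arise for any gene, and they are a description.

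Genes around the apolipoproteins were taken from fixed lists. Of 15 genes of lipoprotein assembly and secretion, 14 were tested in females, where edgeR called 0 and DESeq2 called 1 lower, beside 3.60% of all genes. This was Tm6sf2, which encodes a membrane protein needed to load lipid onto VLDL, at 26.5 CPM ± 4.24 (SD, n = 3) in WTF and 9.55 ± 2.41 in KOF (log2 fold change -1.51, SE 0.305, edgeR adjusted p = 0.0962). The median log2 fold change in females was -0.22 over the 14, with 11 lower, -0.25 over 19 lipoprotein receptors and remodelling enzymes, with 13 lower, and -0.23 over 8 other apolipoproteins and HDL proteins, with 6 lower, beside -0.03 over all genes. None of these medians was tested. In males 0 of the 14 were called by edgeR or DESeq2, and the median was 0.10.

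Of 24 transcription factors and coactivators that act on these genes, all 24 were tested, and 1 was called by DESeq2 in females, where it called 3.60% of all genes. Foxa3, a forkhead factor of hepatocytes, was at 168 CPM ± 42.0 in WTF and 54.8 ± 15.8 in KOF (n = 3), and at 157 ± 28.7 in WTM and 177 ± 45.9 in KOM (log2 fold change in females -1.62, SE 0.293, edgeR adjusted p = 0.0793). The female change less the male one, -1.79, was also called by DESeq2 and not by edgeR (adjusted p = 0.0631). Among 20 lipoprotein receptors and remodelling enzymes and among 9 other apolipoproteins and HDL proteins, of which 19 and 8 were tested in females, 0 were called in either direction by edgeR or DESeq2 for knockout against wild type in either sex.

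Between wild type females and males, where 5.15% of all genes were called, edgeR called higher in females the HDL enzyme Pon1 (log2 fold change 1.10, adjusted p = 0.00326), Tm6sf2 (1.64, adjusted p = 0.00849) and the triglyceride synthase Dgat2 (0.75, adjusted p = 0.0494), and lower the lipoprotein lipase gene Lpl (-1.28, adjusted p = 0.00807). That was 1 of 8 other apolipoproteins and HDL proteins tested and 2 of 14 genes of assembly and secretion. It was 1 of 19 receptors and remodelling enzymes and 0 of 24 transcription factors and coactivators. In knockout mice, where 3.59% of all genes were called, edgeR called higher in females the acute phase apolipoprotein Saa2 (1.83, adjusted p = 0.0360) and the receptor Vldlr (2.54, adjusted p = 0.0281), and lower Lpl (-1.32, adjusted p = 0.00807) and Foxa3 (-1.68, adjusted p = 0.00173). That was 1 of 8 other apolipoproteins and HDL proteins tested and 0 of 14 genes of assembly and secretion. It was 1 higher and 1 lower of 19 receptors and remodelling enzymes, and 1 of 24 transcription factors and coactivators. Of the 14, DESeq2 called 2, both lower, beside 5.45% of all genes. They were Hdlbp (edgeR log2 fold change -0.51, DESeq2 adjusted p = 0.0479) and Sort1 (-1.76, DESeq2 adjusted p = 0.0485), which edgeR did not call. Saa2 was at 131, 53.4 and 30.7 CPM in KOF and at 14.3, 14.8 and 31.3 in KOM, so the groups overlapped and KOF 1070 was far above the rest. Vldlr was at low levels, at 9.02 CPM ± 1.81 in KOF and 1.66 ± 1.57 in KOM (n = 3). So was Sort1, at 2.31 ± 1.16 in KOF and 8.48 ± 1.98 in KOM. The median log2 fold change of the 14 genes of assembly and secretion, females against males, was 0.14 in wild type mice. In knockout mice it was -0.31, and neither median was tested.

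Marker sums also differed between the mice. The 11 Kupffer cell and macrophage markers in the table summed to 530 to 739 CPM in WTF, 417 to 965 in KOF, 107 to 687 in WTM and 124 to 276 in KOM. Hepatocyte markers summed to 65034 to 72244 in WTF, 43862 to 56485 in KOF, 37801 to 47343 in WTM and 36417 to 40213 in KOM, so the lowest and highest sums fell in the same group order as mean Apom. Of the red blood cell markers, Alas2 alone was detected, at 8.47 to 25.2 CPM in females and 83.9 to 154 in males, which separates the sexes, and 4 hemoglobin genes were listed at 0 in all mice. The part of these marker levels in the Apom values was not tested.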

How the data were processed

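Reads were QuantSeq 3′ tags from 12 livers, which the authors trimmed, mapped and counted on Illumina BaseSpace, and they deposited raw read counts per gene symbol in a table per sex, without normalization. The submitters' processing notes name STAR, DESeq and mm10, with no version. The annotation was not stated. Columns were matched to mice by number. Depth was 1293688 to 4056144 counts per mouse, and reads carried no molecular identifiers.

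Each comparison was fitted over all genes with edgeR 4.0.16 (filterByExpr, TMM, quasi-likelihood F test, two-sided, Benjamini-Hochberg adjustment, threshold 0.05) in R 4.3.3. Knockout against wild type used the 6 mice of a sex, the combined fit used 12 mice with a term for sex, and the change in females minus that in males and both comparisons of sexes used 12 mice in 4 groups. DESeq2 1.42.0 and limma 3.58.1 were alternatives. The displayed CPM are scaled by TMM factors of the 12 mice, and log2 CPM had a prior count of 3. Standard errors were derived from the F statistics. The fits were tested on simulated counts with 200 changed genes. Nothing says whether the mice of a group were littermates, so they may not be independent. The p-values set each group difference against an estimate of the spread between these mice.

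Other alternatives were RLE and total-count scaling, removal of Rn45s, no filter beyond 1 count, at least 10 counts, limma-voom with and without library weights, DESeq2 without WTF 1091, other sets of mice and each mouse left out. The members and the gene lists were chosen with earlier results of these data known. All members are named, and from each other list at most 3 genes per comparison, those of smallest p among genes called by edgeR or, where none was, by DESeq2. Some listed genes are not reported individually. Promoters and positions are RefSeq on GRCm38.p6, the build that mm10 denotes, and 8 of 10 members matched a promoter. Descriptions and figures used scipy 1.17.1, pandas 2.3.3, matplotlib 3.10.9 and numpy 2.4.6 in Python 3.11.15.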

Additional observations from a re-analysis of the deposited data

How the results depend on the processing

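The counts of members called moved with few settings, whose causes were not tested. In females DESeq2 called 3.60% of all genes, and between knockout sexes 5.45%. Without WTF 1091 edgeR called 9.64% of genes in females, 5.15% for females minus males, 10.3% between wild type sexes and 9.60% between knockout sexes. The share of all genes was not taken for library weights, no filter, DESeq2 without WTF 1091 or the fit of 6 mice. Counts under those settings are not a result about the members. For knockout against wild type in females the count was 0 by edgeR, 1 by DESeq2, 3 by limma-voom with library weights, 1 with no filter beyond 1 count, 3 by DESeq2 without WTF 1091, and 0 to 3 with each mouse left out. No filter gave 1 in males and 1 with both sexes combined, Apom in each, where edgeR had 0. For females minus males, library weights gave 3, no filter 1, DESeq2 without WTF 1091 gave 3, and leaving out mice gave 0 to 3. Between wild type sexes, where edgeR called 1, library weights gave 3, no filter 2, DESeq2 without WTF 1091 gave 3, and leaving out mice 1 to 2. Between knockout sexes, also 1, DESeq2 gave 2, library weights 3, no filter 3, the fit of those 6 mice 3, DESeq2 without WTF 1091 gave 4, and leaving out mice 1 to 3. The highest counts with a mouse left out came without WTF 1091. Without any other mouse edgeR called 0% of all genes in females and at most 0.0891% for females minus males. The share was then 1.98% to 4.7% between wild type sexes and 1.48% to 3.71% between knockout sexes, with 2 members beside 1.62% without KOF 1070.

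Signs turned only for log2 fold changes of members not called. Apoe went from -0.22 in females to 0.22 with library weights and 0.30 with DESeq2 without WTF 1091, from -0.13 combined to 0.062 and 0.11, from -0.16 in females minus males to 0.28 and 0.34, and from 0.18 between wild type sexes to -0.25 and -0.33. Between wild type sexes Apoa5 (0.16) went to -0.47 and -0.50 and Apoc1 (0.19) to -0.076 and -0.10 under those settings. Apoc3 went to 0.016 in females with DESeq2 without WTF 1091, and combined to 0.044 with it and to 0.036 with library weights. Combined Apoc2 went to 0.0089 with limma-voom, 0.019 with library weights, 0.029 with DESeq2 without WTF 1091 and 1.37e-05 with scaling by total counts. In males Apoa5 went to 0.015 with limma-voom, 0.00060 with library weights and 0.015 with no filter, and Apoa1 to 0.0050 with no filter.

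With each mouse left out, signs turned for these ranges. Knockout against wild type in females gave Apoa1 -0.23 to 0.090, Apoc3 -0.35 to 0.0053 and Apoe -0.43 to 0.29. In males it gave Apoa1 -0.17 to 0.069, Apoa5 -0.20 to 0.25, Apob -0.10 to 0.55, Apoc2 -0.30 to 0.047, Apoc3 -0.022 to 0.17 and Apoe -0.14 to 0.0033. Combined it gave Apoa1 -0.14 to 0.040, Apoa2 -0.0081 to 0.24, Apoc2 -0.076 to 0.13, Apoc3 -0.13 to 0.036 and Apoe -0.24 to 0.097. Females minus males gave Apoa1 -0.22 to 0.12, Apoa4 -0.068 to 0.93 and Apoe -0.42 to 0.34. Between wild type sexes the ranges were Apoa2 -0.58 to 0.0078, Apoa5 -0.49 to 0.49, Apoc1 -0.090 to 0.38 and Apoe -0.32 to 0.44, and between knockout sexes Apoc2 -0.037 to 0.16 and Apoe -0.035 to 0.11.

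No paired analysis was possible because no mouse number is shared between groups. RLE scaling, removal of Rn45s and the filter of at least 10 counts changed no count of members called by more than 1.5 times.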

Other observations

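Other secreted proteins of HDL, named after their values were seen, also differed between mice. Clu, an abundant chaperone that travels on HDL, was at 442 CPM ± 16.0 (SD, n = 3) in WTF, 308 ± 27.3 in KOF, 307 ± 31.9 in WTM and 329 ± 14.2 in KOM. All wild type females (432 or more) were above all other mice (340 or less). Non-overlap of groups was found for 11.9% of genes with KOF below WTF and for 11.5% with WTF above WTM. DESeq2 called Clu higher in wild type females than in wild type males (adjusted p = 0.00792), beside 7.15% of genes. There edgeR did not call it (log2 fold change 0.53, adjusted p = 0.0906). Knockout against wild type in females passed neither (log2 fold change -0.53, edgeR adjusted p = 0.263). Clu in WTF 1091 thus stayed with the other wild type females, whereas Apob, Apoa2 and Apoa5 did not.

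Apof, an inhibitor of lipid transfer, was as abundant as several members, at 4835 CPM ± 2323 in WTF, 3970 ± 1147 in KOF, 2691 ± 418 in WTM and 2748 ± 717 in KOM (n = 3). Its higher level in wild type females than males was not called (log2 fold change 0.85, edgeR adjusted p = 0.148). Saa1, an acute phase apolipoprotein, was at 120 ± 90.8 CPM in KOF and 43.9 ± 13.7 in KOM, a difference that DESeq2 called (adjusted p = 0.0338) and edgeR did not (log2 fold change 1.45, adjusted p = 0.0825). DESeq2 called 5.45% of genes in that comparison. The values were 224, 75.9 and 59.0 CPM in KOF and 50.9, 28.2 and 52.7 in KOM, so KOF 1070 was far above the rest.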
